A study of Rattus norvegicus with 9 samples.

Results

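Sox21, Nell2, Cbln2, Tmem200c, Slc10a4, Bpifb1 and Spata48 are 7 of the 18629 protein-coding genes measured in primary cardiomyocytes of newborn rats. They were chosen by symbol because earlier results of the same libraries had shown them almost absent with control virus and raised with a Yap1 hairpin. The values with the hairpin and with the control virus are therefore a description here, and the open comparison is their level with added Yap1. Cells from the hearts of Sprague-Dawley rats 1 to 2 days old received one of 3 adenoviruses. These were Ad-Yap1 shRNA (a short hairpin RNA against Yap1, 3 libraries), Ad-Yap1 WT (wild-type Yap1, 3 libraries) and Ad-GFP (green fluorescent protein, the control, 3 libraries). All groups had been plated for 18 to 20 h in 10% serum and then kept for 14 h in 1% serum with 1 g/L glucose. Every group, the GFP control included, then had 33 mM glucose with 100 nM insulin for 48 h, so no group shows these genes without that treatment, and no control hairpin was analysed here. The labels do not say whether the 3 libraries of a group came from separate cultures, so p-values measure the spread between these libraries, which may be technical.

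Yap1 is a coactivator that Hippo signalling restrains and that reaches DNA mainly by way of TEAD factors. None of the 7 genes is a textbook heart muscle gene. Sox21 encodes a transcription factor of the SOX family that represses target genes in neural progenitors. Nell2 is a secreted glycoprotein that guides axons through Robo3 and, in mice, acts on the receptor Ros1 in the epididymis. Cbln2 is a secreted organiser of synapses that links neurexins to delta-type glutamate receptors. Slc10a4 is a vesicle protein of cholinergic and monoaminergic neurons, related to the bile acid transporters. Bpifb1 is a secreted protein of airway epithelium from the family of bactericidal permeability-increasing proteins. Spata48 is named for its link to spermatogenesis, and Tmem200c encodes a membrane protein about which little is known.

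In the deposited annotation, which uses the build rn6, the 7 genes lie on 6 chromosomes. Sox21 (gene ID 306168) is at chr15:103438674-103441405 on the minus strand and Nell2 (81734) at chr7:136526497-136853820 on the plus strand. Cbln2 (291388) is at chr18:83775568-83783841 and Tmem200c (501201) at chr9:117044533-117050373, both on the plus strand. Bpifb1 (499926) is at chr3:149668099-149702399 on the plus strand. Slc10a4 (305309) at chr14:37764839-37770059 on the minus strand and Spata48 (289778) at chr14:91556782-91614099 on the plus strand share a chromosome but are not adjacent.

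Promoter windows of 250 bases before the annotated start were taken from RefSeq, build GRCr8, for 6 of the 7 genes. Nell2 had no entry. Windows of 5 starts are shown here and a further Spata48 window after them. They set genes with a small Yap1 WT share of their Yap1 shRNA level (Sox21, Tmem200c, Slc10a4) beside those with the largest shares (Bpifb1, Spata48). By mean count scaled to library size, the Yap1 WT level of Tmem200c lay between those of Bpifb1 and Spata48. A link of the windows to expression was not tested. All run 5′ to 3′ towards the start, on the gene's own strand. Capitals mark matches, on either strand, to any of 6 motifs. These were the TEAD motif with the letters GGAATG, the GC box with GGGCGG, the TATA box with TATAAA and the E box with CACGTG. The AP-1 motif was TGA and TCA with any base between, and the interferon response element was GAAA followed by another such run with any 2 bases between. GC boxes can overlap each other, and a run of capitals may then hold several.
Sox21, chr15:101703176-101703425, minus strand: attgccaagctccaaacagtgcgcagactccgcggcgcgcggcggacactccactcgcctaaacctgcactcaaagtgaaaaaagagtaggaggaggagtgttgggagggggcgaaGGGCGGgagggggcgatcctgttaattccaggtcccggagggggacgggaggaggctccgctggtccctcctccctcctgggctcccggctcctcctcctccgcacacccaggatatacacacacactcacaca
Tmem200c, chr9:116252530-116252779, plus strand: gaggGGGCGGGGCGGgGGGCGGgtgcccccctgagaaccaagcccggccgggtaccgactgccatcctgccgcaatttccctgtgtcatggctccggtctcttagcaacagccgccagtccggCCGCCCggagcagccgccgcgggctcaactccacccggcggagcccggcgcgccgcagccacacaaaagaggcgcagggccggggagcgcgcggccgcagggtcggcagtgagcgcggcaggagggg
Slc10a4, chr14:35557885-35558134, minus strand: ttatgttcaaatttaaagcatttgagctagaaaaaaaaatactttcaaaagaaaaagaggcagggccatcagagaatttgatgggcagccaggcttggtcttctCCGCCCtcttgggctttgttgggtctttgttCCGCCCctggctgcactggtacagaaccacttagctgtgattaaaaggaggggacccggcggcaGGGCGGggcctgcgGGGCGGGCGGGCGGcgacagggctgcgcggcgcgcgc
Bpifb1, chr3:163132901-163133150, plus strand: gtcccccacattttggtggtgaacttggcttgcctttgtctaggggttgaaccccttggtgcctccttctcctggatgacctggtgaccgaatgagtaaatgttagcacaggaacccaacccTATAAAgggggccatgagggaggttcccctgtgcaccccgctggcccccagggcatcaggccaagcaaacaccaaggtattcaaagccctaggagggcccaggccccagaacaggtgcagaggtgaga
Spata48, chr14:90243837-90244086, plus strand: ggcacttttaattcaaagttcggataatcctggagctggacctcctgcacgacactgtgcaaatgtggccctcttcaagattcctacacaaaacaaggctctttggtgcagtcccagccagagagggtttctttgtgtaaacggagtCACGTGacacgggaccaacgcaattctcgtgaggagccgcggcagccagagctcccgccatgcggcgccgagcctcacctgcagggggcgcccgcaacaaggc

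The GC box, the site of Sp1-type factors, was found in the windows of Sox21, Cbln2, Tmem200c and Slc10a4, against 30.5% of all 33469 RefSeq windows of this length. Sox21 had 1 match, Cbln2 2, Tmem200c 4 and Slc10a4 6. Their windows held 16, 21, 30 and 15 CpG dinucleotides, where the median of all windows was 5 and the 90th percentile 24. Of all windows, 76.2% held fewer than that of Sox21, 84.9% than Cbln2, 94.7% than Tmem200c and 74.2% than Slc10a4. The Bpifb1 window had no GC box and 2 CpG dinucleotides. It held a TATA box that began 128 bases before the start (12.9% of all windows hold that motif). The Spata48 window at its most upstream start had no GC box, 15 CpG dinucleotides and an E box that began 103 bases before the start (5.59% of all windows). The windows of its later starts, described below, held 7, 5 and 0 CpG dinucleotides and no GC box. Which start these cells used was not determined.

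The TEAD motif was in none of the windows printed above, nor in that of Cbln2, and 12.1% of all windows hold it. RefSeq lists Spata48 under the symbol Spmip7 with 4 starts, of which the later 3 lie 23290, 23797 and 30764 bases downstream of the most upstream one. The windows of the last 2 of these hold a TEAD motif, which began 178 and 198 bases before the start. The AP-1 motif (6.34% of all windows) and the interferon response element (3.41%) were in no window of the 6 genes. A match is a description of letters, and its absence says only that these letters are not in this window. One of these 2 windows is shown for the TEAD letters it carries.
Spata48 at that start, chr14:90267634-90267883, plus strand: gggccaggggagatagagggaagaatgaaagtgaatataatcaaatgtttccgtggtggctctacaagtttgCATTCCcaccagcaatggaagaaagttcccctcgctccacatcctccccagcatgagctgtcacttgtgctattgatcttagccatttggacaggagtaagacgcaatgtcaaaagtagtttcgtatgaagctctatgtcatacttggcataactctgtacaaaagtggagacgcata

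The libraries held 6103221 to 6357403 assigned reads with Yap1 shRNA, 10960051 to 11497104 with Yap1 WT and 14868180 to 15368473 with GFP, so the genes were nearest to 0 in the deepest libraries. Levels are read counts scaled to library size by TMM (CPM), or values that are also divided by transcript length (TPM) where genes are set against each other. Yap1 itself was at 95.4, 96.0 and 95.3 CPM in Yap1 shRNA libraries and at 559, 812 and 622 CPM in Yap1 WT libraries, against 197, 198 and 190 CPM in GFP libraries. Each virus thus moved Yap1 as its label says. The cardiomyocyte markers were present in every group but summed to 1487 to 1563 CPM with Yap1 shRNA and 3268 to 4937 CPM with Yap1 WT, against 18086 to 18430 CPM with GFP. All 10 of these markers were called lower in both Yap1 groups against GFP by the test described below. Of all tested genes, 39.1% were called lower with Yap1 shRNA and 31.8% with Yap1 WT. Fewer cells of a type and less RNA per cell cannot be told apart in such bulk libraries. The part of this difference in the results below was not tested.

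With Yap1 WT, the 7 genes were also above their GFP level, but most stayed far below the level reached with Yap1 shRNA. Their mean CPM with Yap1 WT was 1.06% of the Yap1 shRNA mean for Sox21, 3.42% for Cbln2, 4.80% for Tmem200c, 7.01% for Nell2 and 11.1% for Slc10a4. It was 29.6% for Spata48 and 73.7% for Bpifb1. The genes thus formed no single pattern, and Bpifb1 was the 1 member whose Yap1 WT and Yap1 shRNA libraries overlapped.

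**Figure D1:**
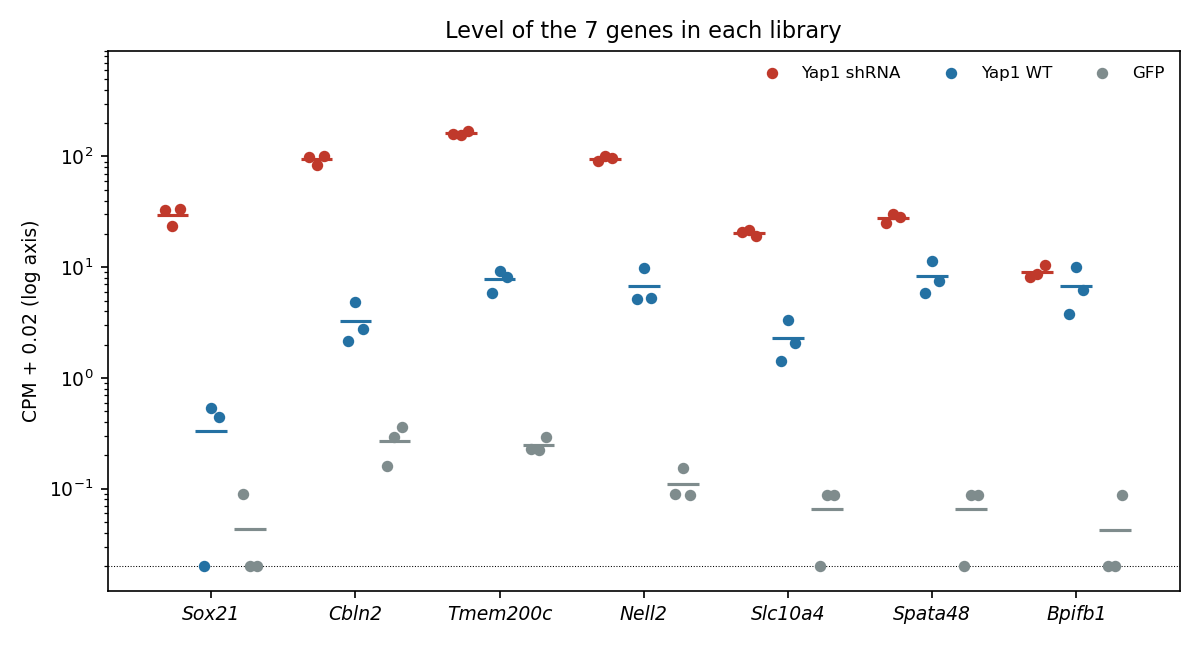
Level of the 7 genes in each of the 9 libraries (points) with group means (bars), in CPM plus an offset of 0.02 on a log axis, with the dotted line at 0 reads. The Yap1 shRNA points lie far above the GFP points for every gene, and the Yap1 WT points lie between them except for Bpifb1, where they overlap Yap1 shRNA, and Sox21, where 1 Yap1 WT library had no read.

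Tests compared Yap1 WT with GFP by edgeR's quasi-likelihood test with Benjamini-Hochberg adjustment over 13708 genes. The Yap1 WT libraries had no part in choosing the genes, but the GFP libraries had. All 7 genes were called higher with Yap1 WT, where 32% of all tested genes were called higher. That count cannot be read as support. The count filter needs about 10 reads in 3 libraries, and 0 of the 7 genes met it in all GFP libraries. All 7 met it in the Yap1 shRNA libraries and 6 in the Yap1 WT libraries. A gene chosen for almost no GFP reads can hardly lie lower, so the direction was nearly fixed, though a call was not. Of 319 tested genes with as few GFP reads (11 or fewer in all), 267 were called higher with Yap1 WT. Such genes could pass the filter only through the Yap1 WT or Yap1 shRNA libraries. That share was thus largely set by the filter too and is no independent background.

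Sox21, the transcription factor, had the widest gap between the Yap1 groups. It was at 32.6, 23.3 and 33.2 CPM in Yap1 shRNA libraries and at 0, 0.513 and 0.427 CPM in Yap1 WT libraries. In GFP libraries it had 1, 0 and 0 reads. The Yap1 WT and GFP libraries overlapped, since replicate 1 of Yap1 WT had no read and replicate 1 of GFP had 1. The pooled count ratio of Yap1 WT over GFP was 13.6, with a 95% exact counting interval of 1.98 to 586. The fitted log2 fold change was 3.23 ± 1.15 (SE), with an adjusted p of 0.0259 in edgeR's quasi-likelihood test. It rests on 11 reads in the Yap1 WT group, and the call was lost when replicate 2 or 3 of either group was left out (adjusted p 0.0746 to 0.105). Without GFP replicate 1, which held the 1 GFP read, the log2 fold change was 4.75. In the authors' deposited table the q-value of the same comparison was 0.0846. The count ratio of Yap1 shRNA over Yap1 WT was 96.1 (counting interval 53.3 to 194, which uses the Yap1 shRNA reads by which the gene was chosen).

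The secreted neuronal proteins Nell2 and Cbln2 both lay far lower with Yap1 WT than with Yap1 shRNA. Nell2 was at 90.6, 99.9 and 96.1 CPM in Yap1 shRNA libraries and at 5.13, 9.75 and 5.21 CPM in Yap1 WT libraries, with 1, 2 and 1 reads in GFP libraries. The 3 groups did not overlap. The Yap1 WT over GFP count ratio was 73.3 (28.3 to 271), and the log2 fold change was 6.03 ± 0.45 (SE, adjusted p 1.37e-07 in edgeR's quasi-likelihood test). Cbln2 was at 98.3, 83.3 and 101 CPM in Yap1 shRNA libraries and at 2.15, 4.79 and 2.74 CPM in Yap1 WT libraries, with 2, 4 and 5 reads in GFP libraries. Its groups did not overlap either, and every GFP library held at least 2 of its reads. Its Yap1 WT over GFP count ratio of 12.8 (6.90 to 26.4) went with a log2 fold change of 3.62 ± 0.43 (SE, edgeR adjusted p 8.03e-06). The count ratios of Yap1 shRNA over Yap1 WT were 14.3 (12.5 to 16.4) for Nell2 and 29.4 (24.3 to 35.9) for Cbln2, with intervals that cover counting error only and use the Yap1 shRNA reads by which the genes were chosen. Single Yap1 WT libraries reached 5.37% to 10.2% of the Yap1 shRNA mean for Nell2 and 2.28% to 5.07% for Cbln2.

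The membrane protein gene Tmem200c had the highest level of the 7 with Yap1 shRNA. It was at 159, 157 and 168 CPM in Yap1 shRNA libraries and at 5.88, 9.15 and 8.21 CPM in Yap1 WT libraries, with 3, 3 and 4 reads in GFP libraries. Its replicates were the closest of the 7, with a highest library 1.07 times the lowest with Yap1 shRNA and 1.56 times with Yap1 WT. The Yap1 WT over GFP count ratio was 33.9 (18.2 to 71.5), with a log2 fold change of 5.02 ± 0.27 (SE, edgeR adjusted p 6.20e-09). The vesicle protein gene Slc10a4 was at 20.6, 21.6 and 19.0 CPM in Yap1 shRNA libraries and at 1.41, 3.33 and 2.05 CPM in Yap1 WT libraries, with 0, 1 and 1 reads in GFP libraries. Here too the 3 groups did not overlap, and the Yap1 WT over GFP count ratio was 49.5 (13.3 to 416; log2 fold change 5.31 ± 0.55, SE, edgeR adjusted p 2.75e-06).

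Spata48, the spermatogenesis gene, and Bpifb1, the airway protein, had with Yap1 WT the largest shares of their Yap1 shRNA level. Spata48 was at 25.1, 30.4 and 28.3 CPM in Yap1 shRNA libraries and at 5.79, 11.5 and 7.52 CPM in Yap1 WT libraries, with 0, 1 and 1 reads in GFP libraries. Its groups did not overlap. The Yap1 WT over GFP count ratio was 181 (49.6 to 1499), and the log2 fold change was 7.18 ± 0.47 (SE, edgeR adjusted p 4.08e-08). Bpifb1 was at 8.15, 8.60 and 10.5 CPM in Yap1 shRNA libraries and at 3.72, 10.1 and 6.24 CPM in Yap1 WT libraries, with 0, 0 and 1 reads in GFP libraries. Replicate 2 of Yap1 WT exceeded 2 of the 3 Yap1 shRNA libraries, so the Yap1 groups overlapped, while both lay above GFP. Its Yap1 WT over GFP count ratio was 292 (51.9 to 11585), with a log2 fold change of 7.61 ± 0.65 (SE, edgeR adjusted p 4.31e-07). Without GFP replicate 3, which held the 1 GFP read, it was 9.12. The ratio of Yap1 shRNA over Yap1 WT was 3.39 (2.93 to 3.93) for Spata48 and 1.36 (1.11 to 1.67) for Bpifb1. These counting intervals use the Yap1 shRNA reads by which the genes were chosen. They do not include the spread between libraries, which for Bpifb1 with Yap1 WT was 2.71-fold.

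Groups did not overlap for 6 of 7 genes between Yap1 WT and GFP, where 35.3% of all tested genes lay higher without overlap. The genes were chosen for GFP levels near 0, which nearly fixed the direction, so that count cannot be read as support. Groups also did not overlap for 6 of 7 genes between Yap1 shRNA and Yap1 WT, a comparison that the choice of genes partly fixed. There the share of all tested genes was 32.6%. Between Yap1 shRNA and GFP, the choice itself put all 7 genes apart (39.9% of all tested genes lay higher without overlap). There the pooled count ratios of Yap1 shRNA over GFP ran from 377 (counting interval 210 to 757) for Cbln2 to 1308 (234 to 51761) for Sox21. Both sides of these ratios are reads by which the genes were chosen, so the intervals describe counting error only. For scale, the median log2 fold change over all tested genes was 0.00 for Yap1 WT and −0.01 for Yap1 shRNA, each against GFP. The 2 comparisons with GFP share their control libraries.

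**Figure D2:**
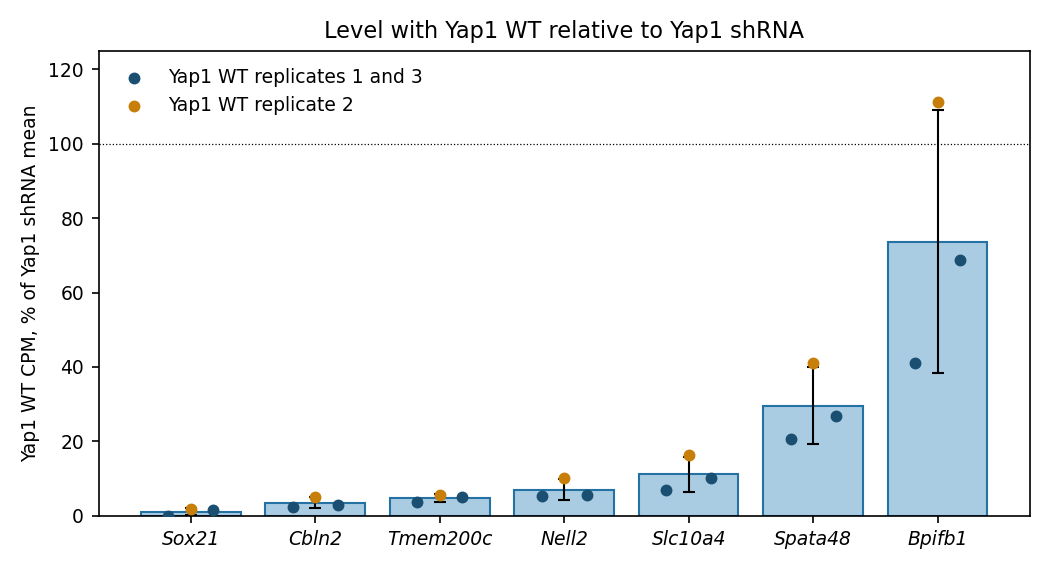
Yap1 WT level of each gene as a percentage of its Yap1 shRNA mean (bars, mean ± SD of 3 Yap1 WT libraries, in CPM; points, single libraries). Sox21, Cbln2, Tmem200c, Nell2 and Slc10a4 average under 15%, Spata48 29.6% and Bpifb1 73.7%, and replicate 2 of Yap1 WT is the highest library for each gene.

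Within the Yap1 WT group, replicate 2 was the highest library for 7 of 7 genes, and it also had the most Yap1 (812 CPM, beside 559 and 622 CPM). The highest Yap1 WT library was 1.90 times the lowest for Nell2, 2.23 times for Cbln2, 2.37 times for Slc10a4 and 1.98 times for Spata48. With Yap1 shRNA the highest library was 1.07 to 1.42 times the lowest, and Sox21 had the widest range. The share of all genes that were highest in replicate 2 was not counted. Of genes described below, Tmem200a, Bpifb4, Bpifb5, Nefm and Map2 were also highest there, and Elavl4 in replicate 3. With 3 libraries no relation to the Yap1 level was tested.

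Per transcript length, the order with Yap1 shRNA was Tmem200c (80.7 ± 3.67 TPM), Spata48 (67.2 ± 3.92), Cbln2 (61.1 ± 7.02), Nell2 (44.8 ± 0.938), Slc10a4 (27.2 ± 1.95), Sox21 (16.9 ± 3.54) and Bpifb1 (9.43 ± 1.20; SD, n = 3 each). The ranges of Spata48 and Cbln2 overlapped, and those of the other neighbours in the order did not. At this level, 89.6% of the genes of the table lay below Tmem200c and 57.0% below Bpifb1. With Yap1 WT the order was Spata48 (21.2 ± 7.12 TPM), Bpifb1 (6.74 ± 3.26), Tmem200c (3.73 ± 0.80), Nell2 (3.07 ± 1.25), Slc10a4 (2.92 ± 1.27), Cbln2 (2.02 ± 0.881) and Sox21 (0.17 ± 0.149). The ranges from Bpifb1 down to Cbln2 overlapped between neighbours, and Spata48 stood above them and Sox21 below them. With GFP the means ran from 0.01 TPM for Sox21 to 0.143 TPM for Cbln2.

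The TPM of Spata48 carries a further difference between the groups. The transcript length implied by its reads and its deposited FPKM was 566 to 590 bases in Yap1 shRNA libraries and 502 to 539 bases in Yap1 WT libraries, against 2169 and 2176 bases in the 2 GFP libraries with a read. The deposited annotation lists 5 transcripts for the gene. The same reads therefore gave a larger TPM for each CPM in both Yap1 groups than with GFP, and the count ratios above do not carry that difference. Each GFP value rests on 1 read and, given the rounding of FPKM, could lie between 1859 and 2612 bases. The mean length with GFP was 3.75 times that with Yap1 shRNA and 4.15 times that with Yap1 WT. The ratio of the Yap1 shRNA length to the GFP length was taken across 9045 genes with at least 50 reads in every library. It ran from 0.847 to 1.09 between its 1st and 99th percentiles. Spata48 is not among these genes, and the spread for genes with as few GFP reads was not measured. The other 6 genes had similar lengths in the 3 groups, for example 2798 bases with Yap1 shRNA, 2794 with Yap1 WT and 2858 with GFP for Tmem200c.

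**Figure D3:**
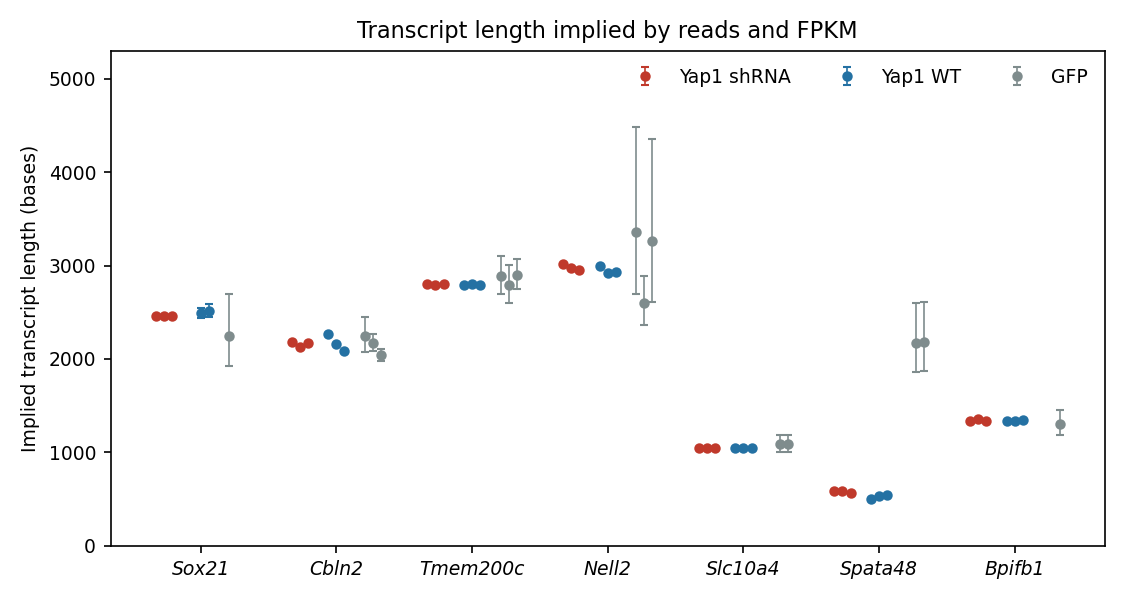
Transcript length in bases implied by reads and FPKM for each gene and library with at least 1 read (points; bars, range allowed by the rounding of FPKM). Spata48 lies near 580 bases with Yap1 shRNA and 524 with Yap1 WT, below the 2 GFP libraries near 2173 bases, while the other genes lie close together across groups.

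Genes just as quiet with GFP gave a background for the 7. In all, 4433 genes of the table had 11 or fewer reads over the 3 GFP libraries, the most of any of the 7. Of these, 30 reached the lowest of the 7 in mean CPM with Yap1 shRNA (Bpifb1, 9.07). That cut is a value of the 7 themselves, so the 30 hold all 7 by construction, beside 23 other genes. With Yap1 WT 19 genes reached that CPM, and none of the 7 was among them. CPM also grows with transcript length, so the ranking counts reads, not molecules. Tmem200c, Nell2 and Cbln2 led it with Yap1 shRNA, in the libraries by which they were chosen. Among the first 10 were also Hey1, a Notch target (76.7 ± 5.69 CPM with Yap1 shRNA and 4.98 ± 2.19 CPM with Yap1 WT), and Txk, a T cell kinase (29.6 ± 5.64 and 13.8 ± 3.21 CPM; SD, n = 3 each). Dr1 (37.3 ± 35.9 CPM with Yap1 shRNA) and LOC100909795 (23.7 ± 25.9 CPM) completed the 10 with Sox21, Spata48 and Slc10a4, and their SD was about as large as their mean. Just below Bpifb1 stood Ccl12 (9.01 CPM) and Styk1 (8.82 CPM). Ranked by Yap1 WT instead, the same quiet genes put Spata48 at place 20 and Sox21 at place 617.

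**Figure D4:**
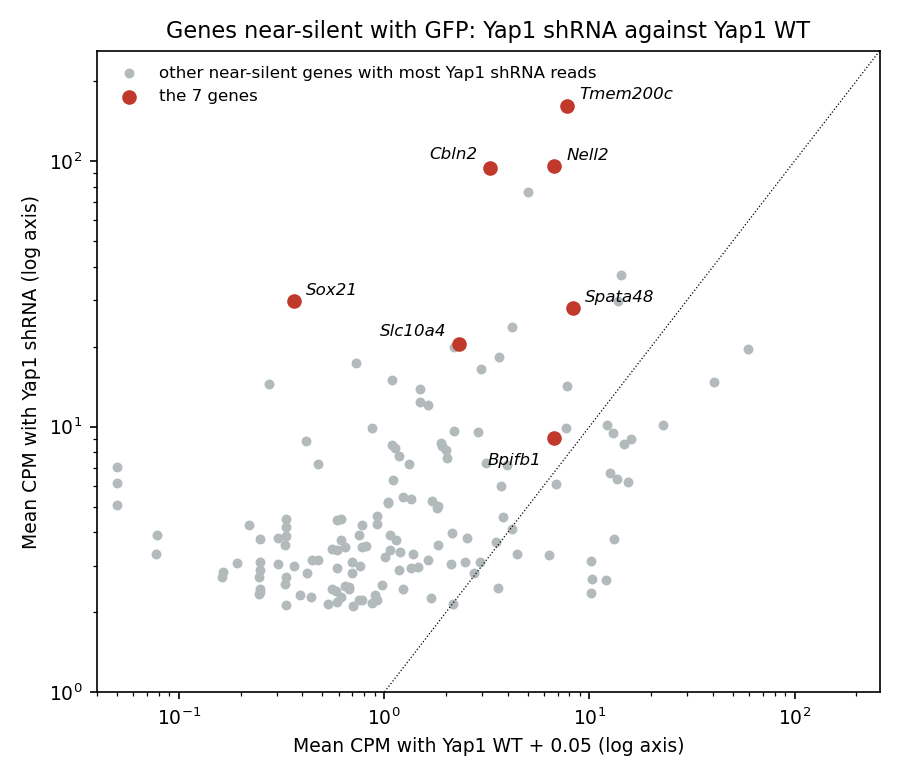
Mean CPM with Yap1 shRNA against mean CPM with Yap1 WT (plus 0.05), both on log axes, for the 150 genes with the highest mean Yap1 shRNA CPM among those with 11 or fewer GFP reads; the dotted line marks equal values. Tmem200c, Nell2 and Cbln2 lie highest, and Bpifb1 lies nearest to the line of the 7.

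The families of the 7 genes were followed for the same comparisons. Of the BPI fold proteins, 4 of 9 in the table were tested, and 3 rose and 1 fell in each Yap1 group against GFP (over all genes, 39.2% rose and 39.1% fell with Yap1 shRNA, and 32% rose and 31.8% fell with Yap1 WT; median log2 fold change 1.77 with Yap1 shRNA and 2.31 with Yap1 WT). Bpifb4 had 132 reads with Yap1 shRNA and 139 with Yap1 WT, against 0 with GFP. That is at least 105-fold and 57.3-fold over a floor of 3 reads for the GFP group. Bpifb5 averaged 1.63 CPM with Yap1 shRNA and 2.86 CPM with Yap1 WT, against 0.477 CPM with GFP. Lbp, which binds bacterial lipopolysaccharide, rose in both groups (log2 fold change 1.78 and 2.07), and Pltp, the phospholipid transfer protein, fell (−2.33 and −0.96).

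Tmem200a, a paralog of Tmem200c, was at 8.45 ± 1.51 CPM with Yap1 shRNA and 1.86 ± 0.681 CPM with Yap1 WT, against 0.182 ± 0.077 CPM with GFP (SD, n = 3 each). It was called higher in both comparisons. Tmem200b was called higher with Yap1 shRNA (log2 fold change 1.10) and had a log2 fold change of 0.14 with Yap1 WT (adjusted p 0.553, edgeR). Of the SOX family, 10 of 16 genes were tested. With Yap1 shRNA 6 rose and 2 fell (median 0.88), beside 39.2% and 39.1% of all tested genes. With Yap1 WT 4 rose and 2 fell (median 0.35), beside 32% and 31.8%. Sox7, an endothelial factor, had log2 fold changes of 4.48 and 2.45, and Sox11, of immature neurons, 1.98 and 0.98. Sox4 rose in both (1.05 and 0.59), as did Sox17 (1.12 and 1.70), and Sox9 fell in both (−0.99 and −1.07). Sox3 and Sox2, the neural progenitor factors that Sox21 opposes, had 34 and 19 reads over the 9 libraries and were not tested. Sox3 had 0 GFP reads and averaged 1.62 ± 1.10 CPM (SD) with Yap1 shRNA and 0.113 ± 0.0502 CPM with Yap1 WT. Sox2 averaged 0.539 and 0.171 CPM in the same groups, against 0.0682 CPM with GFP.

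The partners of the secreted proteins were mostly short of reads or lower than with GFP. For scale, 39.2% of all tested genes rose and 39.1% fell with Yap1 shRNA, and 32% and 31.8% with Yap1 WT. Of the cerebellins and their synaptic partners, 2 of 7 were tested, and 1 rose with Yap1 shRNA and none was called with Yap1 WT. That gene was Grid1, a delta-type glutamate receptor, at 3.81 ± 0.842 CPM with Yap1 shRNA and 0.254 ± 0.0857 CPM with Yap1 WT, against 0.204 ± 0.116 CPM with GFP (SD, n = 3 each). Its log2 fold change was 4.14 with Yap1 shRNA (adjusted p 3.83e-07) and 0.29 with Yap1 WT (adjusted p 0.705, edgeR). Cbln1 and Cbln3 had 8 and 3 reads in all. Cbln1 had 0 GFP reads and averaged 0.376 ± 0.366 CPM (SD) with Yap1 shRNA and 0.0276 ± 0.0478 CPM with Yap1 WT. Of the NELL proteins and their receptors, 3 of 6 were tested: 3 fell with Yap1 shRNA and 2 with Yap1 WT. Among them Ros1 fell in both (log2 fold change −1.76 with Yap1 shRNA and −1.93 with Yap1 WT), as did Robo2 (−0.79 and −0.32). Robo1 fell with Yap1 shRNA (−0.78) and had a log2 fold change of −0.06 with Yap1 WT (adjusted p 0.505, edgeR). Robo3 had 9 reads and Nell1 37. Of the SLC10 and vesicular amine transporters, 4 of 9 were tested, with 1 rise and 2 falls with Yap1 shRNA and 1 rise with Yap1 WT (medians 0.00 and 0.10). The ileal bile acid transporter Slc10a2 was the gene that rose, by 1.23 and 0.54 on the log2 scale, and Slc10a7 (−0.80) and Slc10a3 (−0.18) fell with Yap1 shRNA.

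A wider list of 26 neuronal genes had 13 tested members. With Yap1 shRNA 8 rose and 5 fell (median log2 fold change 0.98), beside 39.2% and 39.1% of all tested genes. With Yap1 WT 5 rose and 4 fell (median 0.49), beside 32% and 31.8%. Nefm, a neurofilament, rose by 5.10 with Yap1 shRNA and by 1.36 with Yap1 WT. The RNA-binding protein gene Elavl4 rose by 4.12 and 1.78 and the microtubule gene Map2 by 3.89 and 2.22. Tubb3, the neuronal beta-tubulin, rose by 2.08 and 0.59, to 139.5 ± 11.4 CPM with Yap1 shRNA and 49.8 ± 5.85 CPM with Yap1 WT, against 33.0 ± 1.31 CPM with GFP (SD, n = 3 each). Vgf rose by 3.67 and Syt1 by 0.90 with Yap1 shRNA. Nsg2 fell, with log2 fold changes of −4.14 with Yap1 shRNA and −4.03 with Yap1 WT. Snap91 (−1.08 and −0.31), Scn3b (−0.91 and −0.16) and Scg2 (−0.78 and −1.24) also fell in both. Scn2a fell with Yap1 shRNA (−1.22) and was not called with Yap1 WT (−0.08). The 26 genes summed to 304 to 337 CPM with Yap1 shRNA. Their sum was 220 to 223 CPM with Yap1 WT, against 233 to 243 CPM with GFP. The other 13 genes of the list had too few reads to be tested, 3 to 54 over all 9 libraries, and the synaptic genes Snap25 and Syp were among them with 5 and 15. Of the neural and glial markers, 7 of 12 were tested, with 5 rises and 1 fall with Yap1 shRNA and 1 fall with Yap1 WT. Foxd3 (log2 fold change 3.90), Erbb3 (1.42) and Dbh (0.77) were among the 5 that rose with Yap1 shRNA, and Dbh fell with Yap1 WT (−0.48). Sox10, also of this list, had too few reads to be tested. It averaged 0.439 ± 0.260 CPM with Yap1 shRNA and 0.616 ± 0.369 CPM with Yap1 WT, against 0.818 ± 0.237 CPM with GFP (SD). The markers summed to 448 to 491 CPM with Yap1 shRNA and 410 to 428 CPM with Yap1 WT, against 393 to 416 CPM with GFP. Ncam1 made up most of these sums (448 CPM with Yap1 shRNA and 404 CPM with Yap1 WT, against 389 CPM with GFP). Chat was at 0 in Yap1 shRNA libraries, and the part of these cells in the levels of the 7 genes was not tested.

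Markers of the other cell types that could hold these genes were also counted. Over all tested genes, 39.2% rose and 39.1% fell with Yap1 shRNA, and 32% rose and 31.8% fell with Yap1 WT. Of 11 epithelial markers 4 were tested, of which 1 rose and 3 fell with Yap1 shRNA and 1 rose and 2 fell with Yap1 WT. They summed to 40.6 to 44.5 CPM with Yap1 shRNA and 24.1 to 28.6 CPM with Yap1 WT, against 29.3 to 33.3 CPM with GFP. No germ cell marker was tested, and the 4 in the table summed to at most 2.40 CPM in any library. Of 18 other genes named for spermatogenesis, 8 were tested, with 2 rises and 3 falls with Yap1 shRNA and 3 of each with Yap1 WT (medians 0.01 and −0.01). Spata5 (2.06 and 0.50) and Spata2 (0.52 and 0.35) rose in both and Spata9 (−2.11 and −0.84) and Spata24 (−1.19 and −0.61) fell in both. Spata13 had log2 fold changes of −0.07 and −0.85 and was called lower with Yap1 WT. Endothelial markers rose in 7 of 8 tested with Yap1 shRNA (1 fell) and in 4 with Yap1 WT (1 fell). They summed to 71.8 to 76.1 CPM with Yap1 shRNA and 61.0 to 66.7 CPM with Yap1 WT, against 46.1 to 47.2 CPM with GFP. Fibroblast markers gave 2 rises and 8 falls of 10 with Yap1 shRNA and 4 and 5 with Yap1 WT, and epicardial markers 2 rises and 5 falls of 8 in each. Fibroblast markers summed to 7750 to 8409 CPM with Yap1 shRNA and 12398 to 16636 CPM with Yap1 WT, against 17957 to 19483 CPM with GFP. The part of these cell types in the levels of the 7 genes was not tested.

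Machineries known to keep genes silent were listed as well. The shares of all tested genes to set beside their counts were 39.2% higher and 39.1% lower with Yap1 shRNA. With Yap1 WT they were 32% higher and 31.8% lower. Of 13 members of the REST corepressor complex, which silences neuronal genes in other tissues, 5 rose and 8 fell with Yap1 shRNA and 5 rose and 3 fell with Yap1 WT (medians −0.19 and 0.08). Rest itself was at 174 ± 9.36 CPM with Yap1 shRNA and 65.4 ± 4.11 CPM with Yap1 WT, against 41.2 ± 0.394 CPM with GFP (SD, n = 3 each). Kdm1a, its histone demethylase, rose in both (log2 fold change 2.64 with Yap1 shRNA and 1.05 with Yap1 WT) as did Cdyl (1.52 and 0.64) and the histone deacetylase Hdac2 (1.27 and 0.21), and Rcor2 fell in both (−1.73 and −1.59). Of 27 Polycomb genes 13 rose and 5 fell with Yap1 shRNA and 7 rose and 6 fell with Yap1 WT (medians 0.17 and 0.07). Rnf2, the ubiquitin ligase of the complex that marks histone H2A, rose by 1.45 on the log2 scale with Yap1 shRNA. Eed (1.07 and 0.67), Ezh2 (0.83 and 0.70) and Phc2 (0.71 and 0.26) rose in both and Cbx6 fell in both (−0.94 and −0.62). Of 14 tested genes of DNA methylation 7 rose and 5 fell with Yap1 shRNA and 4 rose and 6 fell with Yap1 WT (medians 0.14 and −0.01). The methyltransferase Dnmt3a fell in both (−0.74 and −0.72), as did the demethylation enzyme Tet2 (−0.42 and −0.55). Mbd1 (2.06 and 0.71) and Uhrf2 (0.94 and 0.48) rose in both, and Mbd2 (0.64) rose with Yap1 shRNA.

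Most adjacent genes lay far from the fold changes of the 7. Of 14 annotated neighbours 8 had reads enough to be tested. With Yap1 shRNA 5 rose and 3 fell (over all tested genes, 39.2% and 39.1%). With Yap1 WT 5 rose and 2 fell (over all tested genes, 32% and 31.8%). Zar1, 449 bases from Slc10a4, had 4 reads in all. Zpbp, a sperm gene 375 bases from Spata48, averaged 0.433 CPM with Yap1 shRNA and 0.647 CPM with Yap1 WT, against 0.843 CPM with GFP. Bpifb5 lies 3604 bases from Bpifb1. The neighbour nearest in pattern to its gene was LOC103690158, 61515 bases from Tmem200c, at 4.45 CPM with Yap1 shRNA and 0.540 CPM with Yap1 WT, against 0.0688 CPM with GFP. The strand of the reads is not given in the sources used here, so reads of overlapping genes on opposite strands could not be separated.

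**Figure D5:**
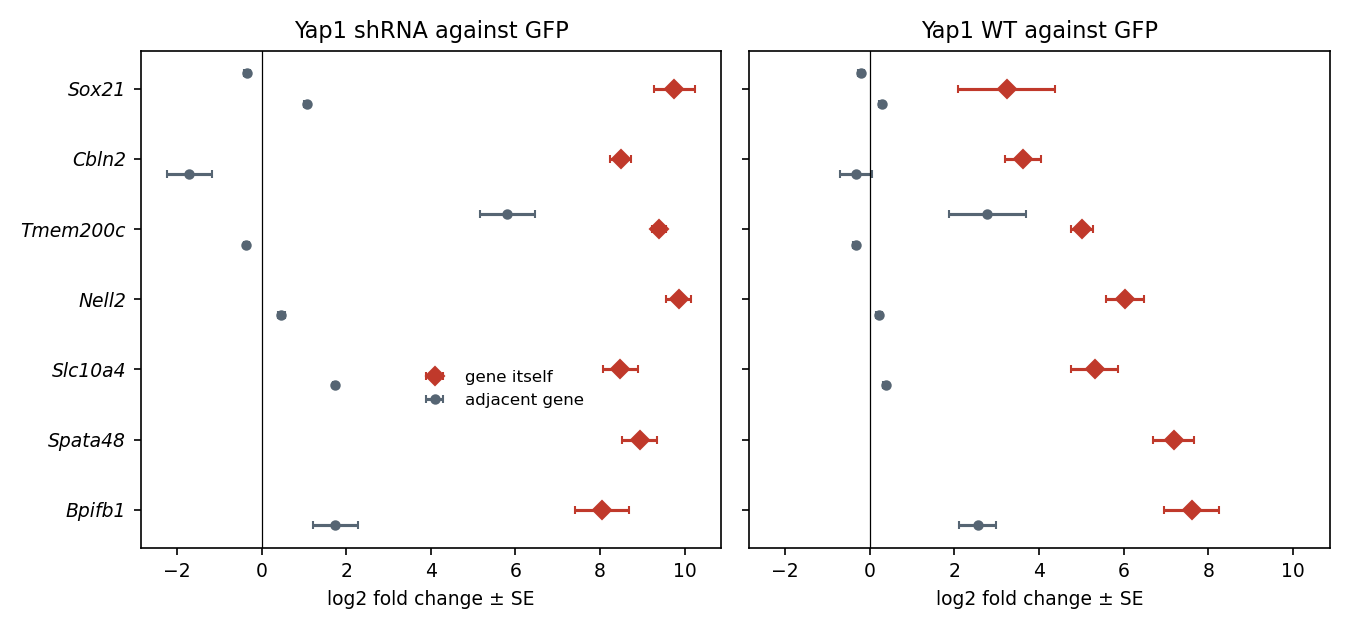
Log2 fold change ± SE of each of the 7 genes (diamonds) and of its tested adjacent genes (circles) with Yap1 shRNA against GFP (left) and Yap1 WT against GFP (right). The adjacent genes lie between about −1.71 and 1.75 with Yap1 shRNA except LOC103690158, next to Tmem200c, at 5.81.

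The profile of the 7 genes over the 9 libraries was also set against all others, by Pearson's r of log2 CPM with the mean of their standardized profiles. The 10 most alike were Map2k1, Psmd3, Slc3a2, Arid5a, Ifrd1, Tsc22d2, Tars1, Chac1, Noc3l and Slc27a1, each with r of 0.999 over 9 libraries that form 3 groups. None of these was near-silent. Arid5a, an RNA-binding protein gene, was at 220 ± 6.45 CPM with Yap1 shRNA and 71.9 ± 10.1 CPM with Yap1 WT, against 20.7 ± 0.824 CPM with GFP (SD, n = 3 each). Map2k1, the MAP kinase kinase MEK1, was at 321 ± 10.9, 172.9 ± 18.2 and 87.2 ± 2.74 CPM in the same groups. Among the 7, Slc10a4 lay closest to the mean of the other 6 (r = 0.999) and Sox21 (0.877) and Bpifb1 (0.892) farthest. These values are a description, since libraries of a group share their treatment and depth.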

How the data were processed

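Messenger RNA of 9 libraries, 3 per group, was sequenced on a BGISEQ-500 after oligo(dT) selection, per the labels' protocols. The submitters' processing notes name HISAT2, Bowtie2, RSEM 1.3.1, DESeq2 1.4.5 and the rat build rn6. The authors deposited expected counts per gene, without normalization, and TPM and FPKM values scaled by library and transcript length. The authors' log2 fold changes and q-values come from DESeq2, per the file headers. Another deposited table holds the same values and was not used.

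Expected counts were rounded. filterByExpr kept 13708 of 18629 genes, and edgeR 4.0.16 (R 4.3.3) fitted the 9 libraries in one model of group with TMM factors. Calls at 0.05 use its two-sided quasi-likelihood F test with p adjusted by Benjamini-Hochberg over the genes kept. Standard errors (SE) were taken as the absolute log2 fold change over the root of F. Ratios of pooled reads are scaled by library size and have 95% exact (Clopper-Pearson) intervals, which cover counting error only. The implied transcript length is reads over FPKM and library reads. Motifs were searched on both strands. The procedure was also run on simulated data, and the outcome is not reported here. No conclusion is drawn from that run for genes with almost no GFP reads.

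The members and gene lists were chosen with earlier results of these data known. Named were the 7 genes, Yap1, and up to 4 called genes with the lowest p per list and comparison. Marker lists other than neural and glial are given as counts and sums. Also named were paralogs, the 10 genes most alike in profile, and the 10 near-silent genes with the highest mean CPM with Yap1 shRNA. Adjacent genes, Vgf, Syt1, Snap91, Scn3b, Scg2, Scn2a, Snap25, Syp, Ncam1, Chat, Ccl12 and Styk1 were added after their values were seen. Alternatives were 3 other scalings, 2 other filters, DESeq2 1.42.0, limma 3.58.1 on log2(TPM + 1) and log2(TPM + 0.1), the compared libraries alone, a replicate block and each library left out. Some items of the lists are not reported here.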

Additional observations from a re-analysis of the deposited data

How the results depend on the processing

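The number of the 7 genes called higher with Yap1 WT against GFP was 6 or 7 in 19 alternatives, and 6 to 7 where a library was left out. Sox21 was the gene lost. Its log2 fold change was 0.20 (adjusted p 0.275) on log2(TPM + 1) and 1.09 (0.0561) on log2(TPM + 0.1) in limma, and in edgeR 2.69 (0.105) and 2.94 (0.0798) without Yap1 WT replicate 2 and 3, and 2.80 (0.0774) and 2.80 (0.0746) without GFP replicate 2 and 3. With the 6 compared libraries alone, it did not pass the count filter. The calls of the other 6 genes cannot be read as stability, since their choice put the GFP level near 0 and left almost only a rise possible. Their log2 fold changes fell on the scales with a pseudocount, to as low as 1.36 (Cbln2). Single GFP reads set the highest values: without GFP replicate 3 that of Bpifb1 was 9.12, and without GFP replicate 1 that of Sox21 was 4.75. No direction turned. Replicate numbers did not pair the libraries (correlations of deviations −0.03 to 0.0939), and with the replicate block 7 of the 7 genes were called. Of the descriptive fold changes with Yap1 shRNA, 29 moved by more than the spread between replicates; a fold against 1 to 11 reads depends on the prior count or pseudocount. The GFP level of each gene is limited by these few reads.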

Other observations

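Some other genes with 11 or fewer GFP reads ran opposite to most of the 7 and were higher with Yap1 WT than with Yap1 shRNA. They are named after their values were seen and no test was made. The interferon-induced gene Oas1a averaged 19.6 ± 4.69 CPM with Yap1 shRNA and 59.5 ± 6.17 CPM with Yap1 WT, against 0.230 CPM with GFP. Rtp4, also induced by interferon, averaged 14.7 ± 4.16 CPM with Yap1 shRNA and 40.5 ± 7.45 CPM with Yap1 WT, against 0.160 CPM with GFP. The chemokine gene Ccl12 averaged 9.01 ± 2.46 CPM with Yap1 shRNA and 16.0 ± 3.03 CPM with Yap1 WT, against 0.138 CPM with GFP (SD, n = 3 each).

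Others lay, as Sox21 did, almost entirely with Yap1 shRNA. Spock1, a secreted proteoglycan gene, averaged 14.5 ± 0.693 CPM with Yap1 shRNA and 0.226 ± 0.179 CPM with Yap1 WT, with 2 reads over the GFP libraries. Bhlha15, a transcription factor of secretory cells, averaged 17.4 ± 2.08 CPM with Yap1 shRNA and 0.681 ± 0.377 CPM with Yap1 WT, with 10 reads over the GFP libraries (SD, n = 3 each).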
